A study of Mus musculus with 38 samples.

Results

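The naïve iPSCs named after the Klf4-transgenic line, kiPSCs, were compared with cells of that line after 3 days in the reprogramming medium iCD1. The comparison covered 4 of the 38 RNA-seq libraries in the series, which were chosen by their sample names. They were 2 kiPSC libraries, labelled as iPSCs, and 2 iCD1 day 3 libraries, labelled as reprogramming cells, and all came from mouse. The starting line, kEpiSC, was made by infecting primed epiblast stem cells (EpiSCs) with a lentivirus that carries Klf4 under a CAG promoter and a neomycin resistance gene. Infected cells were selected with G418, and the line also carries the OG2 Oct4-GFP reporter on a 129 cross. Both groups share these transgenes by name. The labels do not say that the kiPSCs came from this culture. The Y-linked Kdm5d, given at the end, was high in the 15 libraries of kEpiSC and the transition. It was low in the kiPSC libraries and in all other groups of the series. For the reprogramming, kEpiSCs spent 1 day in the primed medium with the ROCK inhibitor Y-27632 and were then moved to iCD1, a chemically defined medium. The labels give no c-Jun mutation and no JNK inhibitor for either group. The passage number, the number of clones and the culture medium of the kiPSCs are not given in the labels. Nothing says that replicates were separate cultures, so p-values measure only the spread between the libraries fitted. The question asked of the data was which part of the naïve transcriptome was in place by day 3, and which genes of the day 3 cells were not found in the naïve line.

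Naïve pluripotent cells resemble the epiblast before implantation and are kept by LIF-STAT3 signalling and by factors such as Nanog, Esrrb, Tfcp2l1 and Klf2. Primed cells resemble the epiblast after implantation and depend on FGF and Activin/Nodal signalling. Klf4 can push primed cells back to the naïve state when the medium allows it. The AP-1 factors, dimers of Jun and Fos family proteins, are induced by growth factors and stress, and c-Jun is low in naïve cells.

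The 2 kiPSC libraries held 8964493 and 5662733 expected counts, and the 2 day 3 libraries held 6695094 and 4623796. Of 14892 genes tested with edgeR's quasi-likelihood test, 8629 (57.9%) passed at a Benjamini-Hochberg adjusted p under 0.05. These were split evenly, with 4364 (29.3%) higher in kiPSC and 4265 (28.6%) higher on day 3. The spread was taken from 17 libraries of the line, and a fit of only the 4 libraries compared called 3258 and 3005. A second rule, which also asks for at least a 4-fold change, called 1614 (10.8%) and 1664 (11.2%), and the median log2 fold change over all tested genes was 0.00. In all values below, a positive log2 fold change is higher in kiPSC, the error is a standard error (SE), n is 2 libraries in each group, and levels are CPM (counts scaled to a fixed library size). The gene lists below are read against these shares. Replicates were close in both groups. Among genes with at least 20 CPM, 22 of 7857 differed by more than 4-fold between the kiPSC libraries and 3 of 7896 between the day 3 libraries. By the deposited TPM values, which are set per transcript length, the called gene with the largest gain in kiPSC was Dppa5a, a naïve marker that binds RNA, at 5820 and 5440 TPM against 44.9 and 31.8 on day 3. Among the 6 called genes with the largest gain on day 3 was the heparin-binding growth factor Mdk, at 4090 and 3260 TPM against 271 and 373. Hspa8, a chaperone, was also among the 6 largest gains in kiPSC with 5410 and 5910 TPM against 2630 and 1860 TPM, and Igf2 was among those of day 3 with 3120 and 2950 TPM against 13.6 and 5.93 TPM.

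Nearly the whole naïve programme was still low on day 3. All 33 listed naïve genes were tested, 31 were higher in kiPSC and 2 were higher on day 3, and 29 and 1 of these changes were at least 4-fold. The median log2 fold change of the list was 6.08, or 6.02 with Aire set at its lower bound, and leaving out any 1 library gave 30 to 31 higher calls. Nanog (chr6:122707489-122714633, plus strand, GRCm38), a homeodomain factor of the naïve network, had 7.18 and 4.14 CPM on day 3 against 1060 and 599 CPM in kiPSC, a log2 fold change of 7.15 ± 0.63 (adjusted p = 1.21e-07). Esrrb (chr12:86361117-86521628, plus strand), an orphan nuclear receptor of the same network, had 9.04 and 5.38 CPM on day 3 and 785 and 517 CPM in kiPSC (6.45 ± 0.53, adjusted p = 5.4e-08). Both day 3 libraries lay far under both kiPSC libraries for each gene. Dppa5a (chr9:78367052-78368177, minus strand) had 10.8 and 7.44 CPM against 1530 and 1400 CPM, and its fold change was 7.30 ± 0.35 (adjusted p = 1.86e-10). Tfcp2l1, a target of LIF signalling, went from 14.8 and 9.51 CPM to 1080 and 900 CPM (6.32 ± 0.39). Zfp42, the Rex1 marker of naïve cells, had at most 2.58 CPM on day 3 and at least 248 CPM in kiPSC (7.25 ± 0.47). The same order held for Tcl1, a co-activator of Akt, with 0.287 and 0.414 CPM against 100.0 and 83.0 CPM, and for Jam2, a junction protein, with 2.58 and 1.86 CPM against 558 and 533 CPM. Fewer cells that express a gene and less of its RNA in each cell cannot be told apart in these bulk libraries.

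As a share of the kiPSC level, the median naïve gene stood at 1.42% on day 3, at 1.72% in replicate 1 and 1.10% in replicate 2. In kEpiSC, before iCD1, the same median was 1.29%, but single genes moved in both directions. From kEpiSC to day 3, 12 of the 33 rose, 9 of them by at least 4-fold, and 9 fell, 3 of them by at least 4-fold. Among all genes tested, 25.2% rose and 25.4% fell. Of the 33 genes, 21 were under 5% on day 3. Gbx2 and Trim2 exceeded their kiPSC level, and the next highest shares were those of Klf4 at 49.5%, the enzyme Fbp2 at 24.9%, the imprint-guarding zinc finger Zfp57 at 20.3% and the oocyte and germ cell factor Dppa3 at 17.1%. Dppa3 differed between the day 3 replicates, at 24.2% and 10%. In kEpiSC the shares were 30.9% for Klf4, 0.894% for Fbp2, 31.1% for Zfp57 and 0.0% for Dppa3. Klf2, another Krüppel-like factor, had 4.33 CPM in kEpiSC, 23.4 and 17.8 CPM on day 3 and 417 and 251 CPM in kiPSC. Its first step, a log2 fold change of 2.26 from kEpiSC to day 3, and its second, 4.01 ± 0.34 from day 3 to kiPSC, both passed the test. Klf4 itself had 136 and 142 CPM on day 3 and 295 and 267 CPM in kiPSC (1.01 ± 0.16, adjusted p = 5.91e-05). With limma on log2(TPM + 1) the Klf4 change was not called (adjusted p = 0.0653, range over all alternatives 2.07e-12 to 0.0653), and reads of the transgene and of the native gene cannot be told apart in these counts. Gbx2, a homeobox gene and STAT3 target, ran the other way. It stood at 12.5 CPM in kEpiSC, had 229 CPM on day 1, and then had 64.7 and 67.2 CPM on day 3 against 11.7 and 9.99 CPM in kiPSC (-2.59 ± 0.20, adjusted p = 2.28e-08). Trim2, a ubiquitin ligase, was the other naïve-list gene higher on day 3 (-1.30 ± 0.23). Nanog differed from Esrrb in its course. It had 126 CPM in kEpiSC and 11.5 CPM on day 1, and its level on day 3 was below that of kEpiSC (log2 fold change -4.42), whereas Esrrb had 5.80 CPM in kEpiSC and did not pass the test between kEpiSC and day 3 (0.36, adjusted p = 0.635).

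**Figure D1:**
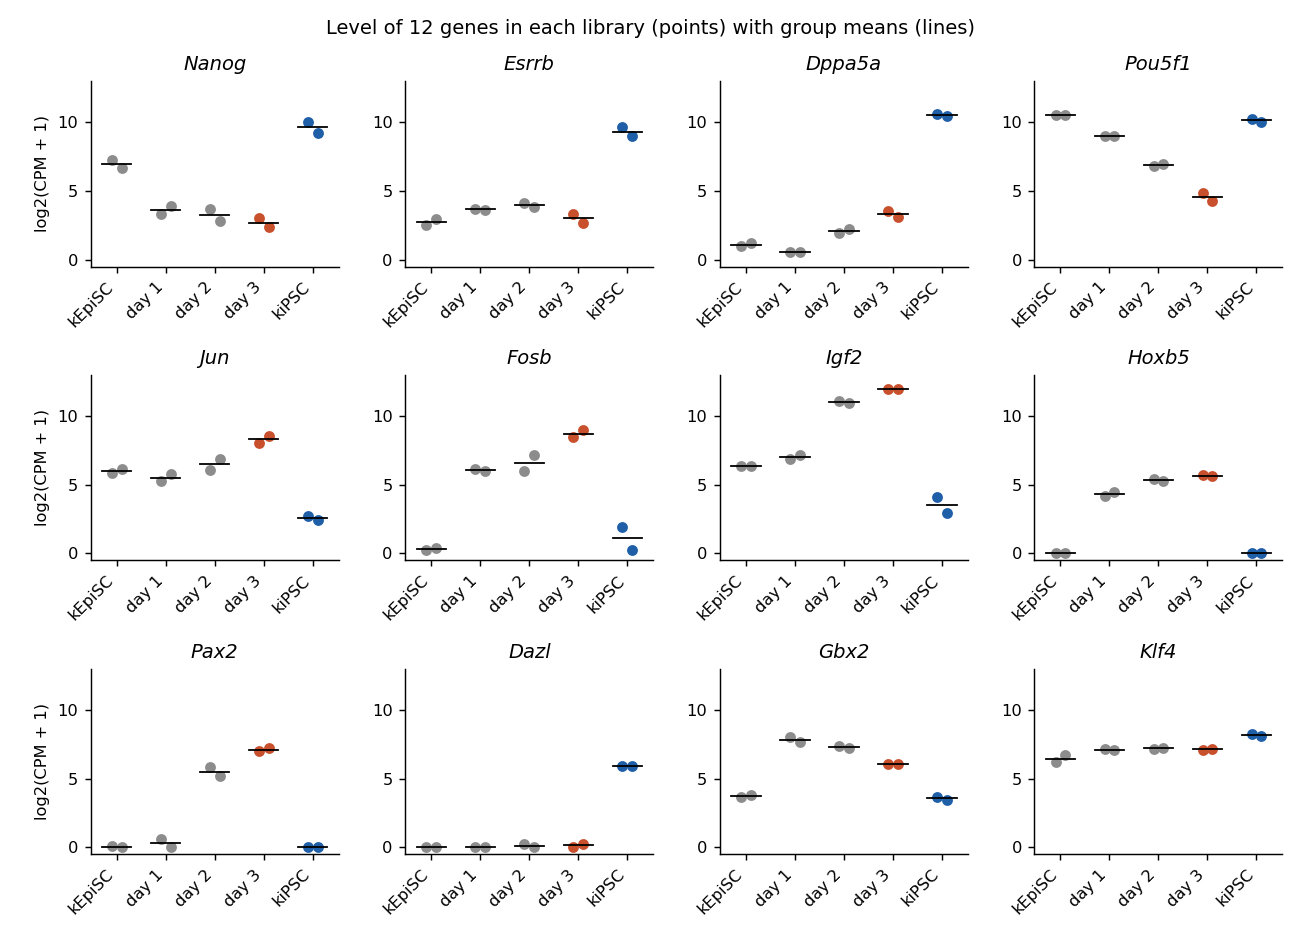
Level of 12 genes in each library, as log2(CPM + 1), in kEpiSC, on days 1, 2 and 3 of iCD1 and in kiPSC. Points are libraries and lines are group means. Nanog, Esrrb and Dppa5a are highest in the kiPSC libraries, Pou5f1 is lowest on day 3, and Jun, Fosb, Igf2, Hoxb5 and Pax2 are highest on day 3.

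The core pluripotency genes, which naïve and primed cells share, also differed between day 3 and kiPSC. Of 13 listed, 12 were tested. 8 were higher in kiPSC, 3 were higher on day 3 and Sall1 did not pass the test, with a median log2 fold change of 1.41. Pou5f1 (chr17:35506018-35510772, plus strand), which encodes Oct4, had 1480 CPM in kEpiSC, 512 CPM on day 1, 118 CPM on day 2, 27.7 and 17.8 CPM on day 3, and 1200 and 1060 CPM in kiPSC. Its change from day 3 to kiPSC was 5.61 ± 0.30 (adjusted p = 5.22e-10), so the day 3 cells were low in a gene that both stable states held at a high level. Tdgf1, the Nodal co-receptor Cripto, followed the same path with 565 CPM in kEpiSC, 1.29 and 1.03 CPM on day 3 and 283 and 232 CPM in kiPSC. L1td1, an RNA-binding protein of pluripotent cells, did likewise at 712 CPM, then 7.46 and 4.34 CPM, then 461 and 442 CPM. Sox2, the partner of Oct4, had 40.9 and 49.4 CPM on day 3 against 627 and 364 CPM in kiPSC (3.46 ± 0.30). The RNA-binding let-7 blockers were the reverse. Lin28a had 287 and 334 CPM on day 3 and 14.3 and 10.7 CPM in kiPSC (log2 fold change -4.61), and Lin28b had 133 and 179 CPM against 4.13 and 4.73 CPM (-5.14 ± 0.18).

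The primed list did not move as 1 block. Of 31 genes tested, 15 were higher on day 3, each by at least 4-fold, 10 were higher in kiPSC, 8 of them by at least 4-fold, and 6 did not pass the test. Their median log2 fold change was -2.30, and leaving out 1 library gave 14 to 16 and 8 to 10 calls. Fgf5, the best known marker of primed cells, had 73.3 CPM in kEpiSC and no count in either day 3 library, and its 0.115 and 0 CPM in kiPSC lie under the 3 counts that a fold needs. Otx2, a homeobox factor of the early primed epiblast, had 0.431 and 0.207 CPM on day 3 and 13.8 and 13.7 CPM in kiPSC (5.28). Primed genes still expressed on day 3 included the neural cadherin Cdh2 with 299 and 297 CPM against 6.65 and 7.88 CPM (-5.37 ± 0.14, adjusted p = 1.12e-12). The binding protein of insulin-like growth factors Igfbp4 had 424 and 431 CPM against 9.29 and 13.7 CPM (-5.25). Car14, a carbonic anhydrase, had 124 and 111 CPM on day 3 and 1 count in kiPSC, a ratio of 1710 (95% counting interval 306 to 67600). Day 3 was higher than kEpiSC for Cdh2 and Igfbp4, which had 44.0 and 21.0 CPM there.

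**Figure D2:**
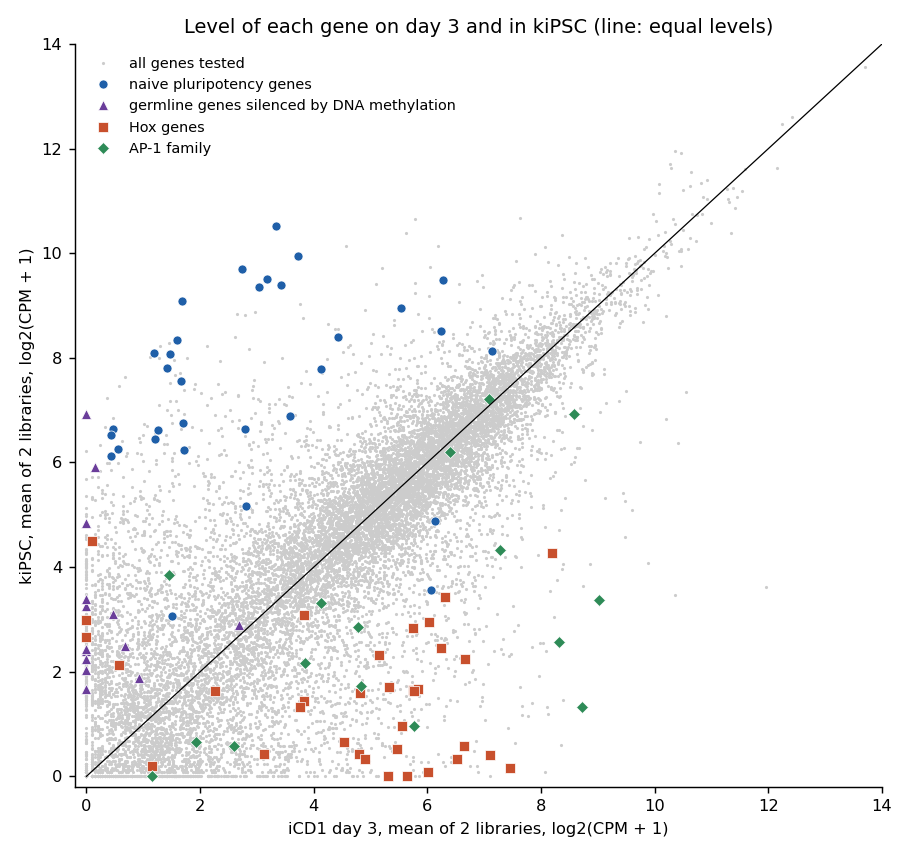
Mean level on day 3 (x axis) and in kiPSC (y axis) of each tested gene, as log2(CPM + 1), with naïve, germline, Hox and AP-1 genes marked. Most naïve and germline genes lie above the diagonal, with Gbx2 and Trim2 among the naïve genes below it, and most Hox and AP-1 genes lie below it.

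AP-1 genes were higher on day 3. Of 19 listed, 16 were tested, 13 were higher on day 3, 10 of them by at least 4-fold, Jdp2 was higher in kiPSC, and Bach1 and Mafg did not pass the test. The median was -2.66, or -2.41 with Batf3, which had no count in kiPSC, at its lower bound. Leaving out 1 library gave 12 to 14 genes higher on day 3. Jun (chr4:95049034-95052222, minus strand), the gene of c-Jun, had 62.7 CPM in kEpiSC, 45.3 CPM on day 1, 91.9 CPM on day 2, 266 and 369 CPM on day 3, and 5.51 and 4.38 CPM in kiPSC. The log2 fold change from day 3 to kiPSC was -5.97 ± 0.54 (adjusted p = 1.56e-07), and day 3 was itself above kEpiSC (2.34). Fosb, a dimer partner of c-Jun, had 0.267 CPM in kEpiSC, 352 and 494 CPM on day 3 and 2.87 and 0.175 CPM in kiPSC (-7.89 ± 0.86). Fos had 438 and 599 CPM against 14.8 and 4.03 CPM (-5.68), and Atf3, a stress-induced member, 40.5 and 66.6 CPM against 0.344 and 1.58 CPM (-5.95). For each of these 4 genes both day 3 libraries were above both kiPSC libraries. They were named by size of change, so this is no separate result. Jdp2, a repressor that dimerises with Jun proteins, had 2.44 and 1.03 CPM on day 3 and 6.77 and 20.0 CPM in kiPSC (2.84 ± 0.59). Among 29 listed immediate early genes and AP-1 targets, 21 were tested, of which 12 were higher on day 3, 4 were higher in kiPSC and 5 did not pass.

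AP-1 binds the motif TGACTCA, whose reverse complement is TGAGTCA. To show where it falls near genes of these lists, promoters of some named genes that hold it are printed 5′ to 3′ on the gene's strand. The windows (RefSeq, GRCm38.p6) run from 250 bases before to 50 after the start, with the motif in capitals. Among those searched, only the called genes with the largest absolute log2 fold changes are shown, so other named genes may hold it too. The promoters printed are those of Zeb2, a repressor of E-cadherin (chr2:45110228-45110527, minus strand, at positions -189 and -132 from the start), Lif, the cytokine of naïve culture (chr11:4257318-4257617, plus strand, at -228), and Trim2 (chr3:84220828-84221127, minus strand, at -77).
Zeb2: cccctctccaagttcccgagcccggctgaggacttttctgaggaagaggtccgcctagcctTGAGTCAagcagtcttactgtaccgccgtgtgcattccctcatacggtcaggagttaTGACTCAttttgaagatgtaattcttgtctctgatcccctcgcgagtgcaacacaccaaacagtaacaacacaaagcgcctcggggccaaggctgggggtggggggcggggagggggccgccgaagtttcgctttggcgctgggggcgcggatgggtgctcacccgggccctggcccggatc
Lif: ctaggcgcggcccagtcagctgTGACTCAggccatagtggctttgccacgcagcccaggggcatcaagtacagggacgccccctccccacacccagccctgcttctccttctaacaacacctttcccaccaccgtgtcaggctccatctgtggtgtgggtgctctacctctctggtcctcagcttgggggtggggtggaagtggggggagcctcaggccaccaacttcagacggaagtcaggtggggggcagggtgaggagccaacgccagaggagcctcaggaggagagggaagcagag
Trim2: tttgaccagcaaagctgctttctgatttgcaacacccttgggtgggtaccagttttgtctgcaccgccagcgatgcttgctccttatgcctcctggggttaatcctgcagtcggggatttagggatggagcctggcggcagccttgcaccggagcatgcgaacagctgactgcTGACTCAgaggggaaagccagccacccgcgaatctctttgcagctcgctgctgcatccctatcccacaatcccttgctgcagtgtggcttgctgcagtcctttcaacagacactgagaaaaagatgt
Zeb2 was higher on day 3, with 24.7 and 33.1 CPM against at most 0.803 CPM in kiPSC (-5.34 ± 0.35). Lif was higher in kiPSC, with 12.2 and 20.7 CPM against 4.31 and 1.86 CPM (2.34 ± 0.49). Of the 14223 such promoters of tested genes, 3.67% held the AP-1 motif on either strand, against 5.03% of 1492 promoters of genes at least 4-fold higher on day 3 and 4.58% of 1442 of genes at least 4-fold higher in kiPSC. The Esrrb motif TCAAGGTCA was in 0.274% of all, 0.693% of the kiPSC set and 0.268% of the day 3 set. The Klf motif GGGTGTGG was in 3.73%, 4.65% and 3.75%, and the Oct4 octamer ATGCAAAT was in 1.36%, 1.66% and 1.74%, in the same order. These shares are descriptions of the windows, and no test was run on them.

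Day 3 cells also carried mesoderm genes. Of 32 primitive streak and mesoderm factors, 29 were tested, 17 were higher on day 3 and 4 in kiPSC, all by at least 4-fold, and 8 did not pass (median -3.39, or -2.51 with 4 genes at their bounds). T, the Brachyury factor of the primitive streak, had 43.2 CPM in kEpiSC, 1570 CPM on day 1, 103 and 127 CPM on day 3 and 1.03 and 0.175 CPM in kiPSC (-7.35 ± 0.30). Meox1, a somite homeobox gene, had 296 and 262 CPM against 0.115 and 2.45 CPM (-8.02). Msx1, a homeobox target of BMP, had 121 and 252 CPM against 0.918 and 0.175 CPM (-8.19). Lhx1, a factor of the streak and of the intermediate mesoderm, had 47.5 and 60.4 CPM on day 3 and no count in kiPSC, at least 254-fold higher. Eomes, a T-box factor of early endoderm and mesoderm, was the reverse, with 0.574 and 0 CPM on day 3 and 12.3 and 16.6 CPM in kiPSC (5.36). Of 20 presomitic mesoderm and Notch genes, all tested, 15 were higher on day 3, 1 was higher in kiPSC and 4 did not pass (median -4.06, or -3.67 with 3 at their bounds). Uncx, a somite homeobox gene, had 111 and 62.9 CPM against 0.229 and 0.350 CPM (-8.22). Hes7, the segmentation clock repressor, had 29 and 17 CPM on day 3 and 1 count in kiPSC (ratio 347, interval 61.8 to 13800). Rspo3, a WNT enhancer, had no kiPSC count and was at least 156-fold higher.

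The 12 named genes with the largest changes toward day 3 included several developmental regulators that kiPSCs lacked. Pax2 (chr19:44756045-44837871, plus strand), a kidney and midbrain factor, had 0.033 CPM in kEpiSC, 126 and 148 CPM on day 3 and no count in kiPSC, at least 649-fold higher on day 3. Foxb1, a forkhead gene of the embryonic brain, had 45.9 and 68.0 CPM, and Sim1, a neural bHLH factor, had 54.5 and 41.4 CPM. Neither had a count in kiPSC, so they were at least 264-fold and 236-fold higher. Emx2 (at least 129-fold), Asb4 (at least 157-fold) and the growth factor Fgf9 (at least 120-fold) were of the same kind. The X-linked Fndc3c1 had 296 and 238 CPM against 1 count in kiPSC, a ratio of 3930 (interval 705 to 155000), and had already stood at 235 CPM in kEpiSC. Lower bounds are set against 3 counts over the 2 empty libraries, and they and the intervals cover counting error only.

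The Hox genes, which set position along the body axis, split by paralogue group. Of 39 listed genes 34 were tested, 28 were higher on day 3 and 4 were higher in kiPSC, all by at least 4-fold, and Hoxa10 and Hoxc10 did not pass. Leaving out 1 library gave 27 to 28 genes higher on day 3. From kEpiSC to day 3, where 25.2% of all genes tested rose and 25.4% fell, 30 of 34 Hox genes rose. In kEpiSC the list summed to 3.10 to 3.22 CPM, on day 3 to 1670 to 1930 CPM, and in kiPSC to 82.5 to 160.0 CPM. All 27 genes of groups 1 to 9, the anterior and central ones, were higher on day 3, with a median of -4.90. Of the 12 genes of groups 10 to 13, the posterior ones, 7 were tested, 1 was higher on day 3, 4 were higher in kiPSC and 2 did not pass, with a median of 2.67. The tested genes of group 10 were below 0 (Hoxa10 -0.90, Hoxc10 -0.86 and Hoxd10 -3.07). All 4 that were higher in kiPSC were of groups 12 and 13, and no gene of group 11 was tested. Posterior genes that are low outside kiPSC enter the test through kiPSC. The share of posterior genes called higher there was therefore partly set by the filter. Hoxb5 (chr11:96303336-96306121, plus strand) had 50.1 and 47.8 CPM on day 3 and no count in either kiPSC library or in kEpiSC, at least 236-fold higher on day 3. Its antisense neighbour Hoxb5os was at least 127-fold higher. Whether the libraries kept strand is not given, so reads where both overlap may not have been told apart. Hoxb1 was at least 188-fold higher, Hoxb3 had a ratio of 1240 (interval 343 to 10300) and Hoxb6 of 937 (168 to 37100). At the other end of the same cluster, Hoxb13 (chr11:96194316-96197447, plus strand) had no count on day 3 and 1.61 and 12.3 CPM in kiPSC, at least 22.9-fold higher there. Hoxc13 had 1 count on day 3 and 18.2 and 25.1 CPM in kiPSC (ratio 247, interval 44.0 to 9790), and Hoxc12 was at least 21.5-fold higher in kiPSC, though DESeq2 did not call it (adjusted p = 0.0688, range over all alternatives 4.67e-10 to 0.0688).

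**Figure D3:**
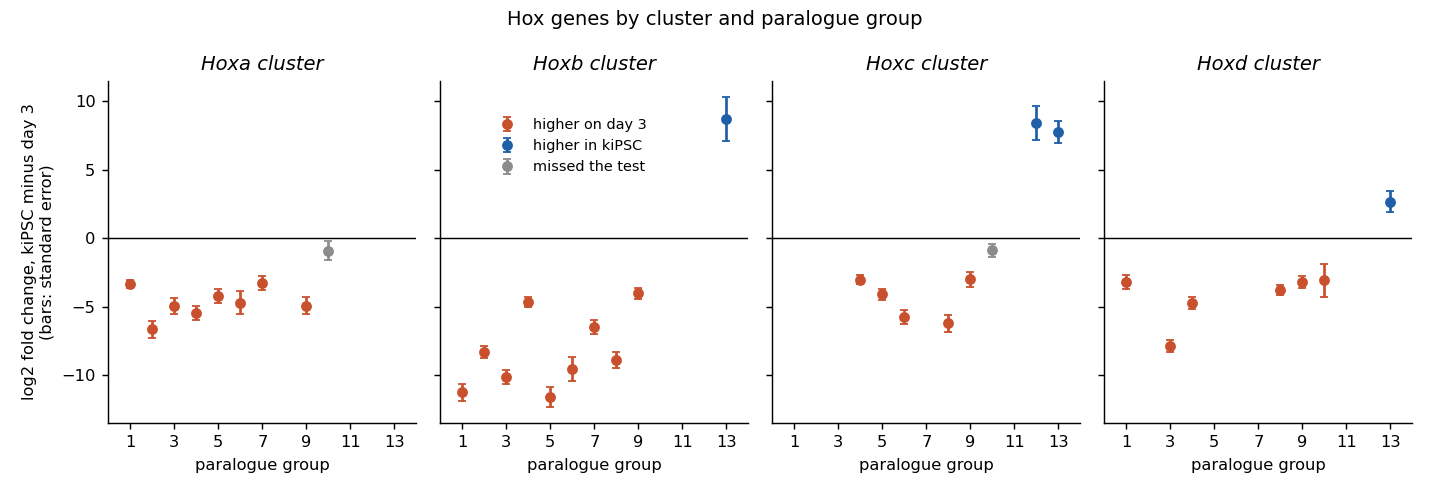
Log2 fold change of the tested Hox genes, kiPSC minus day 3, by paralogue group (x axis) in clusters a, b, c and d. Error bars are standard errors. Groups 1 to 9 lie below 0 in every cluster, as do the tested genes of group 10. Positive values are found only in groups 12 and 13, and no gene of group 11 was tested.

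Pathways that pattern the same tissues were also higher on day 3. For retinoic acid, a signal that induces anterior Hox genes, 14 of 20 genes were higher on day 3, 3 in kiPSC and 3 did not pass (median -3.29). Leaving out any 1 of the 4 libraries gave 13 to 15 and 1 to 2. Stra6, the retinol importer, had 342 and 307 CPM on day 3 against 1.03 and 0 CPM in kiPSC (-9.00 ± 0.37). Crabp2, which carries retinoic acid to the nucleus, had 258 and 288 CPM against 1.95 and 1.05 CPM (-7.41). Cyp26a1, which degrades it, had 24.8 and 18.2 CPM against 1 count (ratio 319, interval 56.8 to 12600). Stra8, the retinoic acid target that starts meiosis, was higher in kiPSC with 13.4 and 60.3 CPM against 5.60 and 3.10 CPM (3.04). For BMP, 12 of 18 genes were higher on day 3, 1 in kiPSC and 5 did not pass (median -2.50), and the 1 was not called when any of the 4 libraries was left out. Its direct target Id1, an inhibitor of bHLH factors, had 81.5 and 101 CPM against 2.18 and 1.23 CPM (-5.66), and Id2 changed by -5.08. For WNT, 14 of 18 tested targets and feedback genes were higher on day 3 and the other 4 did not pass (median -2.20). Nkd1, a WNT feedback inhibitor, had 110 and 111 CPM against 2.18 and 4.03 CPM (-5.22). The cyclin Ccnd2 had 278 and 262 CPM against 6.77 and 1.75 CPM (-5.86), and the R-spondin receptor Lgr5 changed by -4.95.

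The growth factor pathways that separate primed from naïve culture moved apart. FGF-ERK feedback genes, which rise with ERK activity, were higher on day 3 in 14 of 17 cases and higher in kiPSC in 2, and Spry2 did not pass (median -2.02). The 2 became 1 without kiPSC replicate 1 or without day 3 replicate 1. Dusp4, a phosphatase that acts on ERK, had 96.0 and 105 CPM on day 3 and 0.229 and 0.876 CPM in kiPSC (-7.64). Dusp6 had 83.7 and 89.1 CPM against 7.57 and 4.03 CPM (-3.83). The ETS factor Etv5, an ERK target that naïve cells also use, had 525 and 378 CPM in kiPSC against 139 and 152 CPM (1.64). Nodal pathway genes went the other way, with 8 of 14 higher in kiPSC, all by at least 4-fold, 1 higher on day 3 and 5 that did not pass (median 2.54). The 1 became 2 without kiPSC replicate 2. The ligand Nodal had 2.30 and 2.27 CPM on day 3 and 151 and 179 CPM in kiPSC (6.16), against 35.7 CPM in kEpiSC. Its inhibitor Lefty2 had 25.8 and 21.9 CPM against 242 and 361 CPM (3.65), and the ligand Gdf3 had 2.01 and 0.620 CPM against 110.0 and 76.2 CPM (6.03). Of 16 LIF and STAT3 genes, 10 were higher in kiPSC, 5 were higher on day 3 and Jak1 did not pass, with a median of only 0.90. The kinase Pim1, a STAT3 target, had 34.7 and 50.7 CPM on day 3 and 154 and 148 CPM in kiPSC (1.84), and Klf5 had 5.88 and 6.00 CPM against 110.0 and 87.1 CPM (4.05).

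Epithelial and mesenchymal genes were mixed in both groups. Of 27 tested genes of the epithelial-mesenchymal transition, 15 were higher on day 3, 4 were higher in kiPSC and 8 did not pass (median -1.69). Zeb2 was given with its promoter above, and Twist1, a mesodermal bHLH factor, had 28.3 and 32.0 CPM on day 3 against 0.918 and 3.33 CPM (-3.93). E-cadherin, Cdh1, had 726 CPM in kEpiSC, 141 and 108 CPM on day 3 and 776 and 755 CPM in kiPSC (2.62 ± 0.19). Of 29 epithelial genes, though, 14 were higher on day 3, 5 were higher in kiPSC and 10 did not pass (median -0.47). Without kiPSC replicate 1 these were 11 on day 3 and 8 in kiPSC. The splicing factor Esrp1 had 38.6 and 26.5 CPM on day 3 against 0.344 and 1.23 CPM in kiPSC (-5.52), and the keratins Krt18 (-4.68) and Krt19 (-5.85) were also higher on day 3. The desmosomal cadherin Dsg2 was higher in kiPSC (2.01).

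The kiPSC libraries differed from each other in fibroblast markers, whose summed level was 421 CPM in replicate 1 and 204 CPM in replicate 2, against 542 and 573 CPM on day 3. EpiSCs of this study were kept on feeder cells or without them, and which applied to the kiPSCs is not given. Of 12 tested fibroblast markers, 4 were higher in kiPSC, 6 were higher on day 3 and Col1a2 and Col3a1 did not pass. Without kiPSC replicate 1, 1 was higher in kiPSC, and without kiPSC replicate 2, 8 were. Col1a1, the main fibrillar collagen, had 106 and 39.8 CPM in kiPSC and 25.7 and 25 CPM on day 3 (1.53), a change that was not called without kiPSC replicate 1 (0.64, adjusted p = 0.324, range over all alternatives 8.45e-09 to 0.369). The 4 genes of the epithelial-mesenchymal transition higher in kiPSC were likewise 1 without that library, 1 without day 3 replicate 1, and 1 in a fit over all 38 libraries. Naïve calls do not rest on it, since 30 of 33 were higher in kiPSC without it. The part of fibroblasts in the collagen and mesenchymal values was not tested. Of 22 collagen genes, 7 were higher in kiPSC, 10 were higher on day 3 and 5 did not pass, but the 7 were 4 without day 3 replicate 1 and were not called in the fit over all 38 libraries. The basement membrane chain Col4a6 had 58.1 and 47.6 CPM on day 3 and 1 count in kiPSC (ratio 776, interval 139 to 30700).

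Markers of other lineages were checked as well. Of 12 tested trophoblast markers, 8 were higher on day 3 and 3 in kiPSC, and Ascl2 did not pass (median -3.76, or -2.85 with 2 at their bounds). The 3 became 2 when any of the 4 libraries was left out. Cdx2, which posterior mesoderm also expresses, had 56.8 and 55.2 CPM on day 3 against 1.49 and 0.701 CPM (-5.56). Gata3 had 26.4 and 22.7 CPM against 0.344 and 1.93 CPM (-4.58). The retrotransposon-derived placental gene Peg10 had 91.1 CPM in kEpiSC, 1210 and 1400 CPM on day 3 and 16.2 and 3.85 CPM in kiPSC (-6.93). Of 14 tested primitive endoderm markers, 4 were higher on each side and 6 did not pass, and Sox7, Afp and Ttr were too low to test. Of 13 tested neural markers, 7 were higher on day 3, 4 were higher in kiPSC and 2 did not pass, Sox1 among them. Of 10 tested blood and endothelial markers, 4 were higher on day 3 and 2 in kiPSC, and the 4 became 2 without either kiPSC replicate. Pecam1, an adhesion molecule of endothelium and of naïve cells, had 2.01 and 1.86 CPM on day 3 and 143 and 262 CPM in kiPSC (6.69).

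Genes of the germline were found in kiPSC and were almost absent on day 3. The list holds genes that DNA methylation keeps silent in somatic cells. Of 19, 14 were tested, 13 were higher in kiPSC, 12 of them by at least 4-fold, and Sycp1 did not pass. Its median log2 fold change was 7.98, or 4.08 with the 9 genes without a day 3 count set at their bounds, and 10 to 14 were called when 1 library was left out. The list summed to 5.15 to 6.98 CPM in kEpiSC, to 4.02 to 11.2 CPM on day 3 and to 241 to 299 CPM in kiPSC. Of the 19 genes, 13 had no count on day 3. Genes that are low outside kiPSC enter the test through kiPSC, so the share called higher there was largely set by the filter. Tuba3a (chr6:125278274-125286042, minus strand), a testis tubulin, had no count on day 3 and 127 and 114 CPM in kiPSC, at least 480-fold higher. Dazl (chr17:50279395-50293636, minus strand), an RNA-binding protein of germ cells, had 1 count on day 3 and 59.0 and 59.7 CPM in kiPSC (ratio 700, interval 125 to 27700). Hormad1, a meiotic chromosome axis protein, was at least 115-fold higher and the Tudor-domain kinase Stk31 at least 37.9-fold. The germ cell factor Sohlh2 (50.9 and 95.7 CPM, at least 270-fold) and Khdc3, a maternal protein of the oocyte (32.2 and 28.7 CPM, at least 121-fold), were among the 12 largest changes toward kiPSC. Also in that group were Fkbp6, a chaperone of piRNA factors (at least 128-fold, not called by DESeq2, adjusted p = 0.157, range over all alternatives 8.74e-33 to 0.157), Accsl (at least 163-fold), the peptide transporter Slc15a1 (at least 128-fold), the sodium-glucose transporter Slc5a1 (at least 76.1-fold), Pla2g1b (at least 97.1-fold) and Lyplal1 (at least 92.7-fold). None of these 8 had a count on day 3.

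Genes of the 2-cell-like state, a rare state of naïve cultures that expresses genes of zygotic genome activation, were higher in kiPSC in 9 of 9 tested cases out of 15 (median 6.49, or 5.29 with 3 genes at their bounds). Of the 15, 9 had no count on day 3. Members that are low outside kiPSC enter the test through kiPSC, so this share was partly set by the filter. The list summed to 141 to 154 CPM on day 3 and to 256 to 260 CPM in kiPSC. The day 3 sum came only from the members with counts there, and the list had already summed to 138 to 140 CPM in kEpiSC. Zscan4c, a telomere regulator of that state, had no count on day 3 and 13.6 and 14.2 CPM in kiPSC, at least 54.5-fold higher. Zscan4f had 22.3 and 27.9 CPM against 2 counts (ratio 144, interval 39.7 to 1200). The Zscan4 copies are near identical, so the division of reads among them is uncertain. The DNA methylation machinery was split, with 7 of 16 genes higher on each side, and Dnmt1 and Gadd45a did not pass. Tet2, which oxidises methylcytosine, had 17.2 and 15.9 CPM on day 3 and 220.0 and 220.0 CPM in kiPSC (3.73), and Tet1 had 63.4 and 64.5 CPM against 474 and 394 CPM (2.76). Tet3, their relative in differentiated cells, was the reverse with 144 and 128 CPM against 21.2 and 30.1 CPM (-2.42). The de novo methyltransferase Dnmt3a had 211 and 177 CPM on day 3 and 35.2 and 45.9 CPM in kiPSC (-2.27), and its cofactor Dnmt3l had 0.718 and 0.207 CPM against 5.85 and 12.4 CPM (4.13).

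Imprinted genes, expressed from 1 parental copy, were mostly higher on day 3. All 33 were tested, 20 were higher on day 3, 17 of them by at least 4-fold, 5 were higher in kiPSC and 8 did not pass (median -2.13). The list summed to 13200 to 13500 CPM on day 3 and to 1620 to 1710 CPM in kiPSC. Igf2 (chr7:142650766-142666816, minus strand), the fetal growth factor, had 82.5 CPM in kEpiSC, 132 CPM on day 1, 2100 CPM on day 2, 3980 and 4000 CPM on day 3, and 16.1 and 6.66 CPM in kiPSC (-8.39 ± 0.31, adjusted p = 1.64e-11). Its neighbour H19, a non-coding RNA expressed from the other parental copy, had 802 and 1080 CPM against 22.3 and 9.64 CPM (-5.83). Gnas, a signalling G protein subunit, had 1520 and 1490 CPM against 173 and 153 CPM (-3.21), and the placental growth inhibitor Phlda2 had 281 and 223 CPM against 5.16 and 4.56 CPM (-5.68). Those higher in kiPSC included the zinc finger gene Plagl1, with 205 and 319 CPM against 34.9 and 81.5 CPM (2.19), and Zrsr1, a splicing factor relative, with 33.5 and 48.9 CPM against 8.18 and 7.03 CPM (2.42). Without allele-specific counts, maternal and paternal transcripts cannot be told apart. Xist, the RNA of the inactive X chromosome, was low in all 4 libraries with 1.58 and 1.45 CPM on day 3 and 8.49 and 3.68 CPM in kiPSC. Its difference of 2.01 ± 0.47 was not called without kiPSC replicate 1 (1.26, adjusted p = 0.0553, range over all alternatives 0.000209 to 0.288).

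The cell cycle and metabolic lists had smaller medians, from 0.07 for cholesterol synthesis to 0.80 for growth arrest. Of 20 G2/M genes, 13 were higher in kiPSC, 7 did not pass and none changed by 4-fold, and the list summed to 3400 to 3600 CPM on day 3 and to 4680 to 5270 CPM in kiPSC. The ubiquitin ligase subunit Ube2c had 153 and 144 CPM against 267 and 300.0 CPM (0.93). DNA replication genes gave 15 of 23 higher in kiPSC and 3 higher on day 3, with the helicase subunit Mcm5 at 271 and 245 CPM against 624 and 526 CPM (1.16). Glycolysis genes, high in kEpiSC at 29300 to 31500 CPM in sum, stood at 8330 to 8690 CPM on day 3 and 9440 to 10200 CPM in kiPSC. From kEpiSC to day 3, 22 of 23 fell, and between day 3 and kiPSC 10 were higher in kiPSC and 7 were higher on day 3, which became 4 and 1 in the fit over all 38 libraries. The glucose transporter of naïve cells, Slc2a3, had 2370 CPM in kEpiSC, 283 and 255 CPM on day 3 and 1290 and 925 CPM in kiPSC (2.04), and the phosphofructokinase Pfkp had 25 and 39.1 CPM against 324 and 376 CPM (3.47). Of 17 tested p53 targets 7 were higher in kiPSC and none on day 3, though without kiPSC replicate 2 these were 4 and 3, and without day 3 replicate 2 the 7 became 4. Mdm2, the p53 ligase, had 202 and 302 CPM against 104 and 106 CPM (1.26). Of 17 growth arrest genes 10 were higher in kiPSC and 4 were higher on day 3. Cdkn2a, the Ink4a/Arf locus, had 0.718 and 0.414 CPM on day 3 and 31.3 and 24.2 CPM in kiPSC (5.53), and the imprinted inhibitor Cdkn1c had 40.8 and 27.1 CPM against 6.08 and 0.701 CPM (-3.18).

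**Figure D4:**
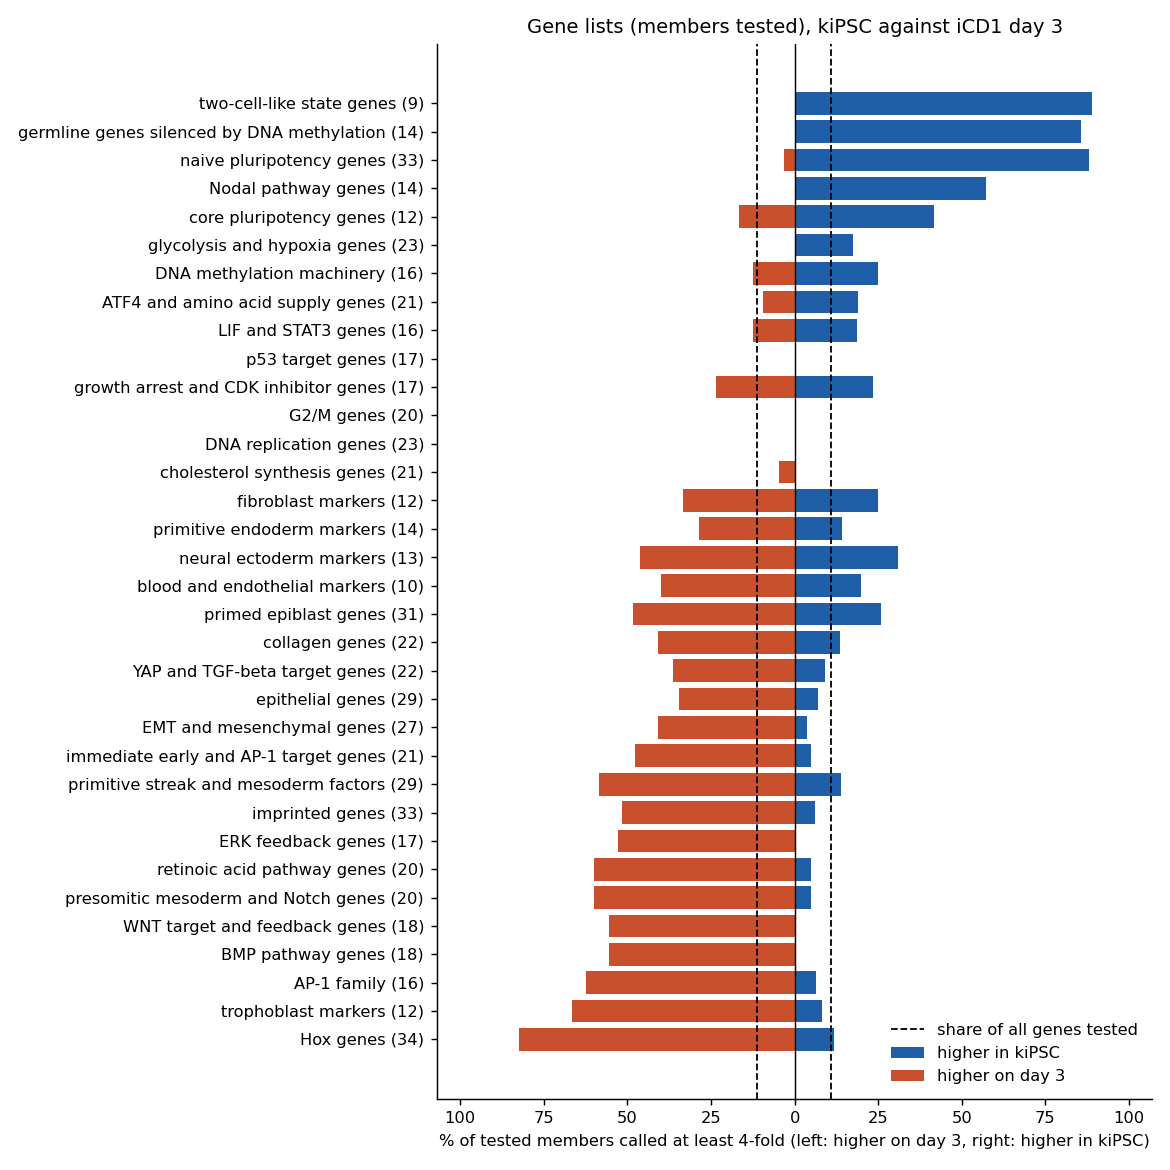
Share of the tested members of each gene list that were at least 4-fold higher in kiPSC (one direction) or on day 3 (the other), in percent. Dashed lines mark the share among all 14892 tested genes, 10.8% and 11.2%. Naïve, germline and 2-cell-like lists lie on the kiPSC side, and Hox, mesoderm, AP-1 and imprinted lists lie on the day 3 side.

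A second pair of groups in the series shares no library with these 4. ESCs, the naïve lines, were set against EpiSC-like cells that had been derived from ESCs in culture, were wild type for c-Jun, bear the k that marks the Klf4 line in their name, and had spent 3 days in iCD1 (WT-kiEpiSC-iCD1). There were 5 ESC and 2 WT-kiEpiSC-iCD1 libraries, and a strain is labelled for 2 of the 5 ESC libraries. The ESC libraries were not alike. In the deposited values, the median gap between transcript length and effective length was 73.48 to 73.49 bases in ESC replicates 1 to 4. It was 176.32 bases in ESC replicate 5 and 137.2 and 139.72 bases in the WT-kiEpiSC-iCD1 libraries. The ESC libraries also differed from each other in Y-linked genes, given below. In a fit over all 38 libraries, 4049 of 15458 genes (26.2%) were higher in ESC and 3953 (25.6%) were higher on day 3, and 11.6% and 8.59% were so by at least 4-fold. Nanog averaged 850 CPM in ESC (678 to 945) and 11.8 CPM on day 3 (4.55 to 19.1), a log2 fold change of 6.15. Jun averaged 9.73 CPM in ESC (2.96 to 26.0) and 182 CPM on day 3 (114 to 250), a change of -4.08. Igf2 averaged 38.7 CPM (0.910 to 160.0) against 3000 CPM, and Hoxb5 had no count in ESC and 30.8 to 39.6 CPM on day 3. Of the genes at least 4-fold higher in kiPSC and tested in both fits, 1282 of 1604 (79.9%) were also at least 4-fold higher in ESC, which is 80.0% of the 1603 called there, and 10.9% of all genes tested in both fits were called so. Of those at least 4-fold higher on day 3 in the kiPSC line, 1086 of 1611 (67.4%) were so in the second line too, 84.7% of its 1282 (background 8.75%). The opposite 4-fold call was made for 0 genes of the first set and for 3 of the second, and by the adjusted p alone for 33 and 10. By list, the second pair gave 31 of 33 naïve genes higher in ESC, and 13 of 18 AP-1 genes, 27 of 37 Hox genes and 18 of 33 imprinted genes lower.

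**Figure D5:**
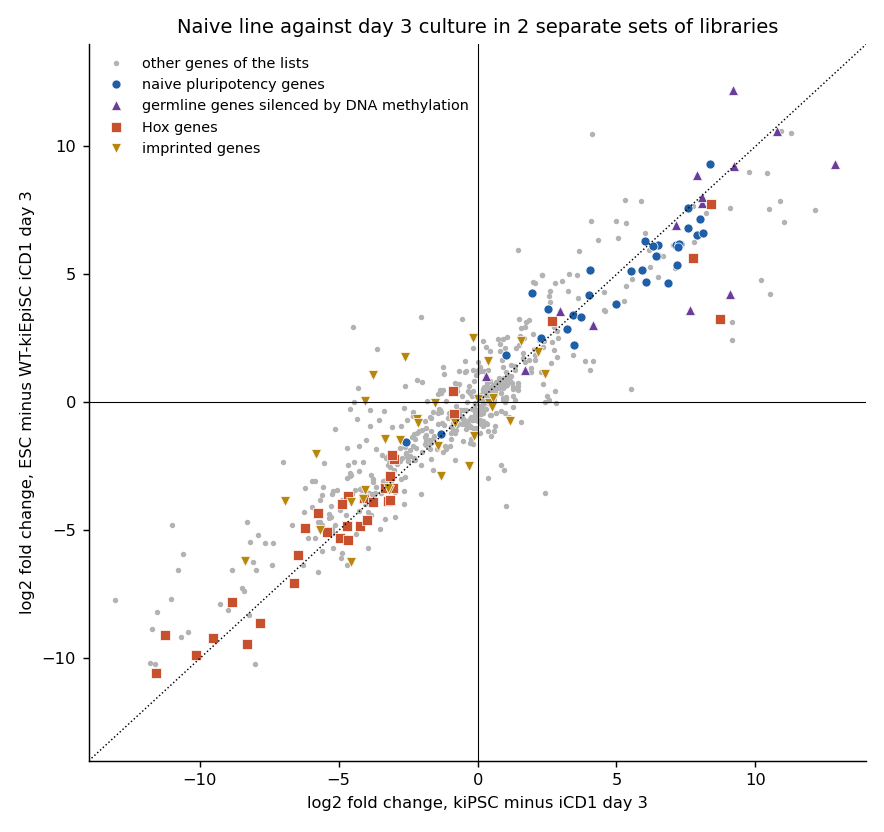
Log2 fold change of the listed genes in kiPSC minus iCD1 day 3 (x axis) and in ESC minus WT-kiEpiSC iCD1 day 3 (y axis). Each point is a gene, both axes are on the log2 scale, and the groups share no library. Most genes have the same sign on both axes.

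The difference between both comparisons was tested directly as an interaction, and 70 genes (0.453%) were positive and 24 (0.155%) negative, where positive means a larger kiPSC than ESC value relative to its day 3 cells. Nanog (0.99 ± 0.77, adjusted p = 0.748), Dppa5a (1.11 ± 1.24) and Jun (-1.91 ± 0.82, adjusted p = 0.445) did not pass, which does not show that they changed alike. Kdm5d, a histone demethylase gene of the Y chromosome, was negative (-4.93 ± 0.94, adjusted p = 0.00828). The negative calls depended on single libraries, as given in the closing sections. The level of Kdm5d was 48.5 to 78.9 CPM in the 15 libraries of kEpiSC and of the transition. It was 5.10 and 1.22 CPM in kiPSC, and at most 3.64 CPM in ESC. In EpiSC it was 0.734 to 2.06 CPM, and in the 12 libraries of ESC-derived primed cells and their day 3 cultures at most 5.36 CPM. Only kEpiSC and the transition thus held Kdm5d at a high level. Read after these values were seen, the other Y-linked genes did not follow it. Ddx3y had 108 and 109 CPM in kiPSC and 60.8 to 106 CPM in those 15 libraries, and Eif2s3y had 97.6 and 68.5 CPM against 60.3 to 93.6 CPM. Among the 5 ESC libraries Ddx3y ran from 0.0 to 127 CPM and Eif2s3y from 0.0 to 81.8 CPM. Whether the kiPSCs descend from the same kEpiSC culture is not given in the labels.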

How the data were processed

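The authors deposited, for each library, a gene table with RSEM expected counts, TPM and FPKM (both scaled for transcript length and depth), made, per the labels, from reads of a TruSeq library on a NextSeq 500, while the study's methods name another library kit. The submitters' processing notes name bcl2fastq, Bowtie2, RSEM and mm10, without versions. The deposited FPKM values were not used. RSEM divides reads shared by near-identical genes by an estimate, and whether the libraries kept strand is not given in the sources used here, so paralogues, pseudogenes and antisense pairs are uncertain. Of 29267 gene IDs, 28756 were paired with symbols, and they held 99.68% of counts. No mitochondrial gene is in the tables.

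Expected counts were rounded to whole numbers, filtered with filterByExpr at a minimum count of 10, scaled with TMM and fitted with the quasi-likelihood test of edgeR 4.0.16 in R 4.3.3, with Benjamini-Hochberg adjustment over all genes tested. The 17 libraries of kEpiSC, kiPSC and the iCD1 transition with and without JNK inhibitor (8 groups, 9 residual degrees of freedom) gave the comparisons within the line. All 38 libraries (18 groups, 20 residual degrees of freedom) gave the ESC comparison and the interaction. The test was checked on simulated data. Alternatives were DESeq2 1.42.0, its size factors, limma 3.58.1 on log2(TPM + 1), other filters, other sets of libraries, a replicate block and leaving out each library. Tables and plots were made in Python 3.11.15 with pandas 2.3.3 and matplotlib 3.10.9, and intervals with scipy 1.17.1.

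Replicate numbers did not pair the samples. Deviations from the group means of same-numbered kiPSC and day 3 libraries correlated at 0.003, and those of kEpiSC and day 3 at 0.028. Both replicate pairs differed by more than counting noise, with chi-square per degree of freedom of 18.25 in kiPSC and 5.74 on day 3. Intervals are exact binomial at 95% and, with the floor of 3 counts, cover counting error only.

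The samples and the 34 gene lists (726 of 730 entries matched) were chosen with earlier results of these data known. Genes named in the text were Dppa5a, Esrrb, Fgf5, Jun, Klf2, Klf4, Nanog, Pou5f1, Sox2, T, Tfcp2l1, Xist and Zfp42, and up to 4 called members of each list in each direction by size of change with at least 5 CPM. They also included the 12 largest called changes in each direction with at least 20 CPM and no overlap, the 6 largest changes in TPM, and 5 genes in each direction of the interaction, of which 1 is not reported here. Members given for their share of the kiPSC level (Dppa3, Zfp57, Fbp2) and the Y-linked genes were named after their values were seen. Gene positions are from GENCODE M21 on GRCm38, the build mm10 names.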

Additional observations from a re-analysis of the deposited data

Results flagged for a closer look

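In ESC, 1 of 5 libraries stood apart for Jun, with 26.0 CPM against 2.96 CPM in the lowest. Over 13 groups examined in this way, chance marks about 1 in 20.

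In the test of the difference between both comparisons (kiPSC minus its day 3, less ESC minus its day 3, edgeR with Benjamini-Hochberg adjustment), 0.453% of all genes tested were positive and 0.155% negative. The genes below were named because they passed this test, so their number is no result. Trim12a, a TRIM family gene, differed by 5.04 ± 0.65 (adjusted p = 9.3e-05), with a log2 fold change of 1.03 in the kiPSC line and -4.03 in the ESC pair. Nlrc3 (3.58 ± 0.48, adjusted p = 0.00012), a regulator of innate immunity, had 0.96 and -2.63. Rab33b (3.32 ± 0.43), a Golgi and autophagy GTPase, had 0.39 and -2.94, and Ppip5k1 (3.27 ± 0.40), an inositol phosphate kinase, had 0.84 and -2.44. For all 4 of these genes every ESC library was below every kiPSC library, which is no separate result for genes picked by this test.

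The negative calls depended on single libraries, as the range over fits that leave out 1 library, given below, shows. Kdm5d was the largest of the negative ones, at -4.93 ± 0.94 (adjusted p = 0.00828), with -4.30 in the kiPSC line and 0.58 in the ESC pair. Col26a1, a collagen gene, had -4.37 ± 0.84 (adjusted p = 0.00908), with 46.6 to 49.9 CPM on day 3 of the kiPSC line and 2.97 to 6.99 CPM on day 3 of the ESC-derived line. Ipp had -3.84 ± 0.72 (adjusted p = 0.00788), with 69.7 to 120.0 CPM in ESC and 7.48 to 9.41 CPM in kiPSC. The splicing regulator Ptbp3 had -1.30 ± 0.26 (adjusted p = 0.0148), and Atxn7l3b had -1.07 ± 0.21 (adjusted p = 0.00945). What separates the lines in these genes was not tested. The line, the origin of the primed cells and the group cannot be told apart here.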

How the results depend on the processing

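Of 247 genes named for kiPSC against day 3, 2963 refits kept direction and side of the threshold in 2843 cases, lost the call in 112, gained it in 6 and changed sign in 2. With limma on log2(TPM + 1), which shrinks low genes, 1043 genes were at least 4-fold higher in kiPSC and 1025 on day 3, against 1614 and 1664. In the same setting 2496 genes were higher in kEpiSC than on day 3, and 1129 and 753 were at least 4-fold higher in ESC and in WT-kiEpiSC-iCD1. The share of calls that were higher on day 3 than in kEpiSC went from 49.7% to 64.8%, with the median of all genes at 0.18 in place of 0.00. The interaction gave 44 negative genes with no filter and 42 with the replicate block, against 24. Leaving out 1 library gave 22 to 83 positive and 0 to 45 negative ones. The replicate block, whose numbers do not pair the samples, called 4413 and 4321 genes for kiPSC against day 3, 3804 and 3869 for day 3 against kEpiSC, 3927 and 3956 for the ESC pair, and 100.0 and 42 for the interaction.

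Changes of sign were few. With limma they were Gins2 (0.11) for kiPSC against day 3, Gm10076 (0.02), Gm2000 (0.15) and Xist (-0.17) for day 3 against kEpiSC, and Col26a1 (0.96) and ENSMUSG00000063180 (-0.49, and -0.90 with ESC replicate 5 only) for the ESC pair. The rest came from leaving out 1 library. For kiPSC against day 3 the range was -0.11 (without day 3 replicate 1) to 0.32 for Ptbp3. For day 3 against kEpiSC it was -0.11 to 0.64 for Esrrb and -0.01 to 0.63 for Tfcp2l1, both lowest without day 3 replicate 1, and -0.02 to 0.38 for Kdm5d, lowest without day 3 replicate 2. For the ESC pair it was -0.71 to 0.48 for Col26a1, highest without WT-kiEpiSC-iCD1 replicate 1. For the interaction the lowest values came without WT-kiEpiSC-iCD1 replicate 2, with -0.08 to 1.75 for Dppa5a, -0.67 to 1.42 for Esrrb, -0.38 to 1.67 for Nanog, -0.78 to 1.17 for Pou5f1 and -0.50 to 0.70 for Tfcp2l1, and Klf2 ran from -0.60 to 0.12. The cause of these changes was not tested. With 2 libraries in each group and 4623796 counts in the smallest, a gene with no count could still have been present at up to 3 counts.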

Other observations

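Genes of amino acid supply and of the ATF4 stress response were higher in kiPSC in 10 of 21 cases and higher on day 3 in 3, and 8 did not pass the test (median 0.47, against 29.3% and 28.6% of all genes tested). Asns, the asparagine synthetase, had 92.9 and 93.5 CPM on day 3 and 845 and 515 CPM in kiPSC (2.87 ± 0.23). The pseudokinase Trib3 had 1.87 and 0.827 CPM against 23.5 and 17.9 CPM (3.86), and the arginine transporter Slc7a3 had 7.03 and 5.79 CPM against 185 and 42.6 CPM (4.15). The last of these differed by over 4-fold between the kiPSC libraries, yet both lay above day 3.

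Of 21 cholesterol synthesis genes, 3 were higher in kiPSC, 3 were higher on day 3 and 15 did not pass, with a median of 0.07. In the ESC pair 1 was higher in ESC and 19 were lower. The interaction covered these genes only 1 by 1, with values not given here, and the list as a whole was not tested for a difference between the pairs. Of 22 YAP and TGF-beta targets, 12 were higher on day 3 and 4 were higher in kiPSC, with a median of -1.87, and the 4 became 2 without day 3 replicate 2. Within this list Ccn2, a matricellular target of YAP, had 7.18 and 5.38 CPM on day 3 and 49.9 and 109 CPM in kiPSC (3.62). Lox, the collagen cross-linking enzyme, had no count on day 3 and 24.5 and 12.8 CPM in kiPSC, at least 78.3-fold higher.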
